A study of Mus musculus with 4 samples.

Results

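The RNAs of the large ribosomal subunit proteins were followed through an RNA contact map of mouse spermatogonial stem cells. A member was any RNA named Rpl with a number (and an optional a, x, l or y and further digit) or Rplp0, Rplp1 or Rplp2, and 47 of the 13318 RNAs in the deposited table met this rule, in 474 of its 56636 pairs. All 47 names matched a gene symbol in the RefSeq table of GRCm38.p6. One of them, Rpl6l, was classed there as a pseudogene and the others as protein-coding. Rpl10l, Rpl29, Rpl32l, Rpl35a, Rpl39l and Rpl3l were not analysed here.

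The contacts were measured by RIC-seq, in which formaldehyde fixes RNA and protein in cells, the RNA is cut, ends lying close together are joined, and the joined (chimeric) fragments are read. The differentiation group held 2 libraries, whose genotype label reads Differentiation, and the control group held 2 libraries labelled WT. All were labelled as spermatogonial stem cells, and the sources used here gave no inducer, duration or animals. Nothing said that the libraries came from separate cultures, so the p-values measure only how far these libraries differ, and that spread may be technical.

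The large ribosomal subunit is the part of the ribosome that joins amino acids into a chain, and its proteins are made in the cytoplasm, carried to the nucleolus and assembled there on ribosomal RNA. Their genes are expressed in nearly every cell, have left many processed pseudogenes (copies of the spliced RNA put back into the genome), and often carry small nucleolar RNAs (snoRNAs), the guides of ribosomal RNA modification, in their introns. Many of their RNAs begin with a run of pyrimidines, the TOP motif, through which growth signals set their translation together.

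The member pairs held 7825 and 13639 counts in the differentiation libraries and 9462 and 10754 counts in the controls. These were 0.987% and 1.18% of all counts in the differentiation libraries and 0.783% and 0.768% in the controls. Total counts were 793129 and 1155923 in the differentiation libraries and 1209031 and 1400011 in the controls. Every listed pair had a count in all 4 libraries, so a pair lost from any library was not analysed here. The contact total of an RNA was the sum over its pairs, and levels are given as CPM (counts scaled by TMM to a common library size), separately for totals and for pairs. A contact total can move with the level of the RNA as well as with its contacts, and in bulk libraries fewer cells of a type and less RNA per cell cannot be told apart.

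Members differed widely in how many partners they had. The number of listed pairs ran from 1 (Rpl24 and Rpl31) to 115 (Rpl13a) with a median of 6, and 23 members had 5 or fewer. Rpl13a alone had 2578 and 4375 counts in the differentiation libraries and 3064 and 3542 counts in the controls. A pair of an RNA with itself was listed for 4 members (Rpl13a, Rpl11, Rpl22 and Rpl7l1), or 8.51%, against 36.3% of all RNAs and 0 of the 33 listed small subunit protein RNAs.

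Of the 47 members, 45 had counts enough for a test of the contact total with edgeR's quasi-likelihood test, and Rpl26 (2 and 8 counts in differentiation, 3 and 4 in control) and Rpl31 (1 and 2 counts in differentiation, 5 and 4 in control) had not. At a Benjamini-Hochberg adjusted p under 0.05, 9 members were higher in differentiation and 3 were lower. DESeq2 called the same 12 and also Rpl13a and Rpl22 as higher. Over all 10993 tested RNAs 12.2% were called, 5.44% higher and 6.75% lower. The median log2 change of the tested members was 0.54, against −0.001 over all tested RNAs. The groups did not overlap for 25 members that were higher (26.1% of all tested RNAs) and 9 that were lower (29.1% of all tested RNAs), and overlapped for 11. Every one of the 12 calls was lost when control 1 or control 2 was left out. Then 0 members were called, with 11 higher and 3 lower at an unadjusted p under 0.05 without control 1, and 7 higher and 3 lower without control 2. Over all RNAs, 0.973% were still called higher and 1.7% lower without control 1, and 0.418% and 0.755% without control 2.

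The stalk proteins form the flexible arm of the large subunit that recruits elongation factors. Rplp0, the base of that arm on chromosome 5 at 115559467 to 115563729, had 419.9 and 545 CPM in the differentiation libraries and 301 and 252 CPM in the controls. Its log2 change was 0.81 (SE 0.18, adjusted p = 0.0122). Rplp1, one of the acidic proteins bound to it, on chromosome 9 at 61913283 to 61914510, had 202 and 257 CPM in the differentiation libraries and 115 and 106 CPM in the controls, a 2.08-fold difference (log2 change 1.06, SE 0.18, adjusted p = 0.00315). Both differentiation libraries lay above both controls for each RNA. Rplp2, the other acidic protein, had 140.2 and 153 CPM in differentiation and 108 and 122 CPM in control and did not pass (log2 change 0.36, SE 0.18, adjusted p = 0.221). Rpl12, a neighbour of the stalk base, had 53.0 and 50.7 CPM in differentiation and 54.4 and 75.6 CPM in control (−0.33, SE 0.23, adjusted p = 0.400), so that 2 of the 4 stalk RNAs passed.

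Rpl5 and Rpl11 carry the small ribosomal RNA of the large subunit and bind Mdm2 when they are free. Rpl5, on chromosome 5 at 107900508 to 107909005, had 130.5 and 98.8 CPM in the differentiation libraries and 174 and 221 CPM in the controls. It was lower in differentiation with no overlap (log2 change −0.80, SE 0.20, adjusted p = 0.0236). Rpl11 had 37.5 and 24.8 CPM in differentiation and 24.9 and 29.2 CPM in control (0.18, SE 0.31, adjusted p = 0.767), and its groups overlapped.

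Around the tunnel through which the new chain leaves, 1 of 9 tested members was higher and 1 lower. Rpl35 had 129 and 147 CPM in differentiation and 73.5 and 82.1 CPM in control (0.83, SE 0.19, adjusted p = 0.0139). Rpl23a, a protein at the tunnel exit, had 55.4 and 43.2 CPM in differentiation and 82.2 and 101 CPM in control (−0.91, SE 0.22, adjusted p = 0.0207). Neither gene had overlapping groups. The other tested tunnel members, among them Rpl4, Rpl17, Rpl19 and Rpl22, did not pass by edgeR. Rpl22 (370.2 and 514 CPM in differentiation, 328 and 284 CPM in control) had an adjusted p of 0.0810 by edgeR, and passed with DESeq2 (adjusted p = 0.0321), with robust dispersion (adjusted p = 0.0446), with the replicate number as a block (adjusted p = 0.0280) and without differentiation 1 (adjusted p = 8.83e-05).

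Of the members near the tRNA sites and at the stalk through which the empty tRNA leaves, 0 of 5 passed by edgeR or by DESeq2, with 2 higher at an unadjusted p under 0.05. Rpl3, a core protein near the peptidyl transferase centre, had 272 and 233 CPM in differentiation and 294 and 334 CPM in control (−0.32, SE 0.16, adjusted p = 0.236). Of 5 members at the factor-binding centre and the bridges to the small subunit, Rpl41, the shortest of the ribosomal proteins, was higher with 171 and 196.5 CPM in differentiation and 132.5 and 107 CPM in control (0.62, SE 0.18, adjusted p = 0.0465).

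Other called members belonged to none of these role lists. Rpl36 was higher, with 121 and 134 CPM in differentiation and 52.6 and 64.5 CPM in control, a 2.17-fold difference (log2 change 1.12, SE 0.20, adjusted p = 0.00373). Rpl18 had 311.5 and 358 CPM in differentiation and 212 and 183 CPM in control (0.76, SE 0.16, adjusted p = 0.0113). Rpl14 had 89.7 and 100.4 CPM in differentiation and 55.0 and 51.4 CPM in control (0.84, SE 0.20, adjusted p = 0.0179). These 3 had no overlap between groups.

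Rpl7 had 181 and 237 CPM in differentiation and 135 and 138 CPM in control (0.62, SE 0.18, adjusted p = 0.0466). Rpl7 and Rpl41 were close to the threshold. They were also lost without differentiation 2 (adjusted p = 0.166 and 0.0712), with no filter on low counts (0.0652 and 0.0591), without pairs of Gm42418 (a ribosomal RNA pseudogene) or Gm26917 (0.101 and 0.0593) and without pairs of the noncoding RNAs Neat1 or Malat1 (0.0533 and 0.0569). Rpl7a, a protein of the outer surface of the subunit, on chromosome 2 at 26910685 to 26913312, had 137.0 and 135.0 CPM in differentiation and 227 and 222 CPM in control (−0.72, SE 0.16, adjusted p = 0.0140), so its libraries agreed closely within each group.

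**Figure D1:**
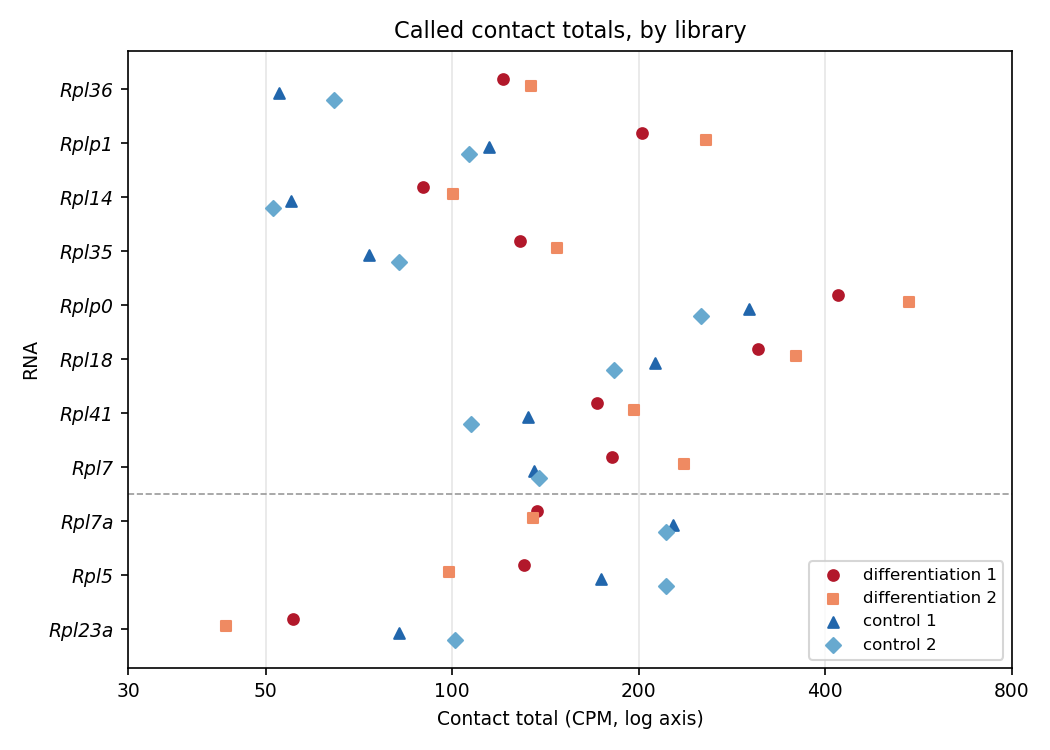
Contact totals (CPM, log axis) of 11 of the 12 called members in each library, with differentiation libraries as circles and squares and controls as triangles and diamonds. The 8 members above the dashed line were higher in both differentiation libraries than in both controls, and the 3 below it were lower.

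The 33 members that did not pass by edgeR had changes between −0.47 (Rpl28) and 2.06 (Rpl24), 25 above 0 and 8 below. Rpl24 rested on 5 and 6 counts in differentiation and 1 and 2 counts in control (adjusted p = 0.120). The paralogs did not pass by edgeR or DESeq2. Rpl22l1, the paralog of Rpl22, had 19.6 and 42.1 CPM in differentiation and 13.9 and 15.1 CPM in control (1.12, SE 0.39, adjusted p = 0.0892), and passed with the replicate number as a block (adjusted p = 0.0324), without differentiation 1 (4.87e-04) and over between-RNA pairs only (0.0212). The Rpl22l1 total was made of 2 pairs, with the pseudogene Gm15421 and with Orc5, a gene that overlaps Gm15421. Both pairs had 12 and 39 counts in differentiation and 12 and 15 in control, so the same counts appear to enter this total more than once. Rpl7l1 had 33.4 and 51.3 CPM in differentiation and 37.0 and 44.8 CPM in control (0.07, SE 0.27, adjusted p = 0.915). Rpl13a, the member with most counts, on chromosome 7 at 45125563 to 45128745, had 2102 and 2362 CPM in differentiation and 1773 and 1784 CPM in control (0.33, SE 0.14, adjusted p = 0.172). It passed with DESeq2 (adjusted p = 0.0469) and without differentiation 1 (adjusted p = 0.0332).

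The start regions of called members are shown because the TOP motif is the sequence feature these genes are best known to share. RefSeq start regions were held for 35 members, 7 of them called, on GRCm38.p6, and the windows run from 15 bases before to 15 bases after the start used by the RefSeq table of start regions, on the strand of the gene. That start lay downstream of the first base of the RefSeq gene span by 20 bases for Rpl5, 122 for Rpl7a and 2604 for Rpl18, and these windows do not hold the first base of the span, as for 6 of the 35 members in all. Capitals mark the longest run of C and T. Rpl18, Rpl14, Rpl35, Rplp0 and Rpl41 were higher, and Rpl7a and Rpl5 lower.
Rpl18 (chr7:45718056-45718085, + strand): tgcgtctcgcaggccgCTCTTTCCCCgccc
Rpl14 (chr9:120571502-120571531, + strand): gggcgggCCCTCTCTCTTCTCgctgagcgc
Rpl35 (chr2:39005117-39005146, − strand): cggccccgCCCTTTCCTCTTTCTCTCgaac
Rplp0 (chr5:115559452-115559481, + strand): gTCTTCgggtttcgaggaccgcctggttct
Rpl41 (chr10:128549154-128549183, − strand): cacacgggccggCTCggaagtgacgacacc
Rpl7a (chr2:26910792-26910821, + strand): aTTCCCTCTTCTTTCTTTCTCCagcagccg
Rpl5 (chr5:107900513-107900542, + strand): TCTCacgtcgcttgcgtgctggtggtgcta

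A run of at least 8 letters that were each C or T stood in 16 of the 35 member windows (45.7%), against 11.9% of the 27025 windows of all genes, searched on the strand of the gene only. It was found in 3 of 5 windows of higher members, 1 of 2 windows of lower members and 11 of 26 windows of members that were not called. A window without such a run says only that these letters are not in that window. Rpl7, Rpl36, Rplp1 and Rpl23a were not in the table of start regions.

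The partners of the members fell mainly into 2 classes. The pseudogene class held RNAs other than the members that the RefSeq table classes as pseudogenes or whose name holds ps after a hyphen. Gm42418, which the table lists as a synonym of the ribosomal RNA pseudogene Rn18s-rs5 (chromosome 17 at 39846354 to 39848202), was kept out of it and set in a class with Gm26917, which the table did not match. The pseudogene class took 42.6% (95% Wilson interval 41.5% to 43.7%) and 46.4% (45.5% to 47.2%) of member pair counts in the differentiation libraries, and 34.2% (33.2% to 35.1%) and 31.8% (31.0% to 32.7%) in the controls. The intervals cover counting error only and take each count as a separate read. Some counts appear to enter more than 1 pair, so the intervals are too narrow even for that. Gm42418 and Gm26917 together took 12.8% (12.1% to 13.5%) and 11.7% (11.2% to 12.3%) in the differentiation libraries and 18.9% (18.2% to 19.8%) and 22.6% (21.8% to 23.4%) in the controls. Pairs within one member took 8.68% and 9.18% in differentiation and 8.23% and 7.67% in control. The nuclear noncoding RNAs Neat1 and Malat1 took 1.12% and 0.872% in differentiation and 5.53% and 6.09% in control. The pseudogene share was thus higher, and the shares of the Gm42418 class and of Neat1 and Malat1 lower, in both differentiation libraries than in both controls. With 2 libraries a group no exact permutation test of a share can pass, and none was run.

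**Figure D2:**
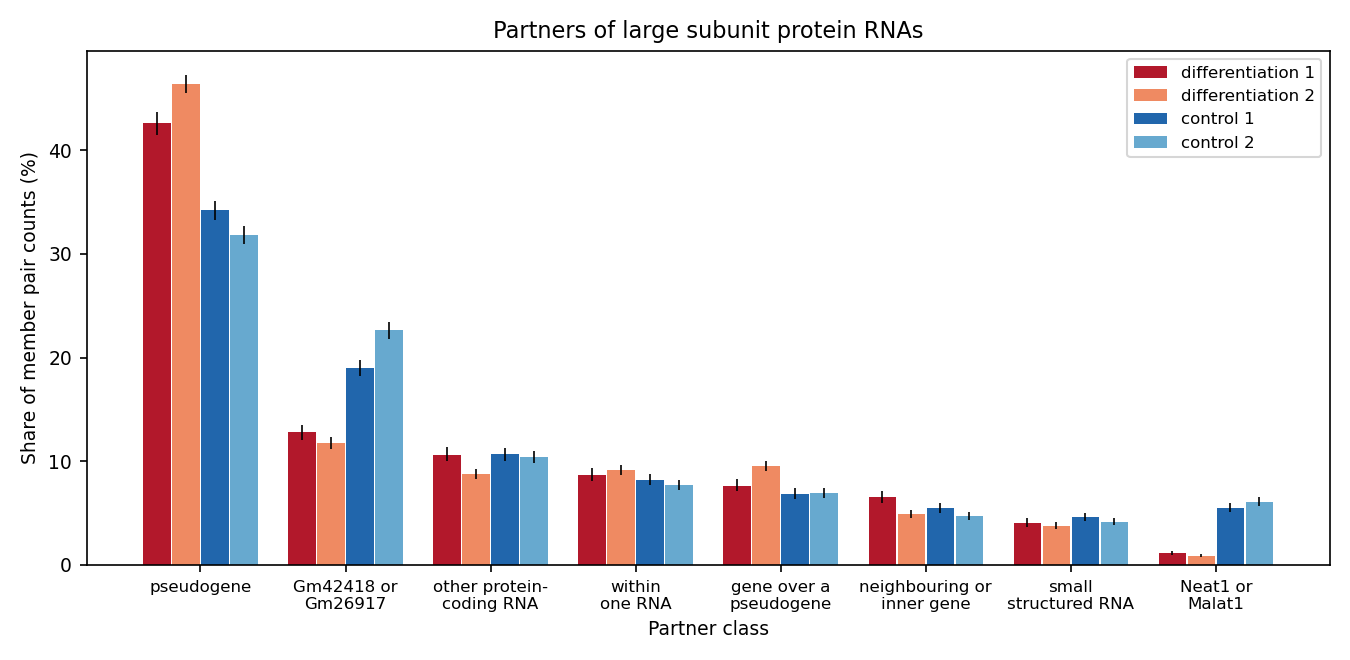
Share (%) of the summed counts of all member pairs by class of partner, in each library, with 95% Wilson intervals for counting error that take each count as a separate read. Pseudogene partners (Gm42418 not included) took 42.6% and 46.4% in the differentiation libraries and 34.2% and 31.8% in the controls, while Neat1 and Malat1 took 1.12% and 0.872% in differentiation and 5.53% and 6.09% in control.

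The pseudogene pairs numbered 55, of 35 members with 53 pseudogenes, and 51 of these pseudogenes were paired with 1 member only. Of the 53, Rpl34-ps1 is protein-coding in the RefSeq table and was counted here by its name. In 16 pairs the name of the pseudogene was that of the member followed by ps. A processed pseudogene is close to identical to the RNA it was copied from, and the sources used here do not say how reads that fit both places were assigned. Whether such a count joins 2 RNAs, or 2 stretches of the member's own RNA of which 1 was placed on the copy, cannot be told apart in these data, and the values of these pairs are uncertain in that sense.

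Of the 474 member pairs 246 could be tested, and 26 were called, 20 higher in differentiation and 6 lower. Of all 31688 tested pairs, 5.24% were called, 2.85% higher and 2.4% lower. Of the 20 higher pairs 14 joined a member to a pseudogene, out of 42 such pairs tested, with a median log2 change of 1.11 and a change above 0 in 41. For 39 of the 42 the groups did not overlap and differentiation was higher, as in 24.0% of all tested pairs. Pairs of pseudogenes with RNAs other than the members ran the same way, with 94 of 1106 tested pairs higher, 1 lower and a median of 0.79. For small subunit protein RNAs 9 of 30 pseudogene pairs were higher and 0 lower, with a median of 0.99. The 204 tested member pairs outside the pseudogene class had a median of 0.38, with 6 higher and 6 lower.

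The pair of Rplp0 with Gm8730, a pseudogene on chromosome 8 at 102864775 to 102865872, had 355 and 687 counts in the differentiation libraries and 301 and 284 counts in the controls. That was 505 and 658 CPM in differentiation and 254 and 204 CPM in control (log2 change 1.35, SE 0.22, adjusted p = 0.00127). Rplp1 with Gm10073 (chromosome 8 at 106572965 to 106573432) had 230 and 452 counts in differentiation and 183 and 187 in control (1.40, SE 0.23, adjusted p = 0.00143). Rpl36 with Gm13611 (chromosome 2 at 32271810 to 32272204) had 123 and 201 counts in differentiation and 74 and 102 in control (1.44, SE 0.25, adjusted p = 0.00274). These 3 pairs kept an adjusted p under 0.05 in every alternative in which they were tested, leaving out each library included.

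Rpl18 with Gm13436 (chromosome 2 at 36807789 to 36808427) had 177 and 293 counts in differentiation and 152 and 139 in control (1.23, SE 0.24, adjusted p = 0.00533). Rpl14 with Rpl14-ps1 (chromosome 7 at 45324958 to 45325651) had 98 and 177 counts in differentiation and 82 and 94 in control (1.18, SE 0.26, adjusted p = 0.0119). Without control 2 both were lost, and Rpl14 with Rpl14-ps1 was also lost without control 1, with adjusted p values up to 0.132. Another 8 called pseudogene pairs had changes of 0.92 to 1.17 and belonged to Rpl13a, Rpl41, Rpl35 (2 pairs), Rpl7, Rpl18, Rpl6 and Rpl19.

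All 9 members with a higher contact total had a pseudogene as their largest partner, and for the 8 named above 78.3% (Rpl41) to 98.7% (Rpl18) of the counts lay in pseudogene pairs. The 3 members with a lower total had no pair in the pseudogene class, though each was paired with Gm42418. When every pair with an RNA of the pseudogene class was left out of the table and the Gm42418 pairs were kept, 0 of 41 tested members were higher by edgeR (6 at an unadjusted p under 0.05), the same 3 were lower, and the median member change was 0.22. Over all 9985 RNAs tested in that setting 5.26% were higher and 6.14% lower. For Rplp1 the change without these pairs was 0.47 (adjusted p = 0.526), for Rpl36 it was 1.01 (adjusted p = 0.214), and for Rpl7 it was −0.28. Pairs with a gene that overlaps a pseudogene partner were kept, though they can repeat its counts. Among those kept, Rpl36 with Sumf1 had 6 and 12 counts in differentiation and 4 and 6 in control. The pair of Rpl36 with the pseudogene Gm4604, which was left out, had the same counts. The step took off most counts of the higher members and none of those of the lower members. Rpl18 kept only its Gm42418 pair, with 7 and 7 counts in differentiation and 5 and 4 in control. The loss of the higher calls was thus largely built into the step and says little about their other pairs. Of 19 members with at least 50% of their counts in pseudogene pairs, a grouping made after the values were seen, 9 were higher, 0 lower, and the median was 0.81. The other members, 26 of them tested, had 0 higher by edgeR (4 at an unadjusted p under 0.05, and 2 by DESeq2), 3 lower and a median of 0.13. The share leaves out genes that overlap a pseudogene partner, so Rpl30, with 35.5% in the pseudogene class and 36.0% with such a gene, was among these others. The share and the total come from the same counts, so the grouping is a description and carries no test.

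**Figure D3:**
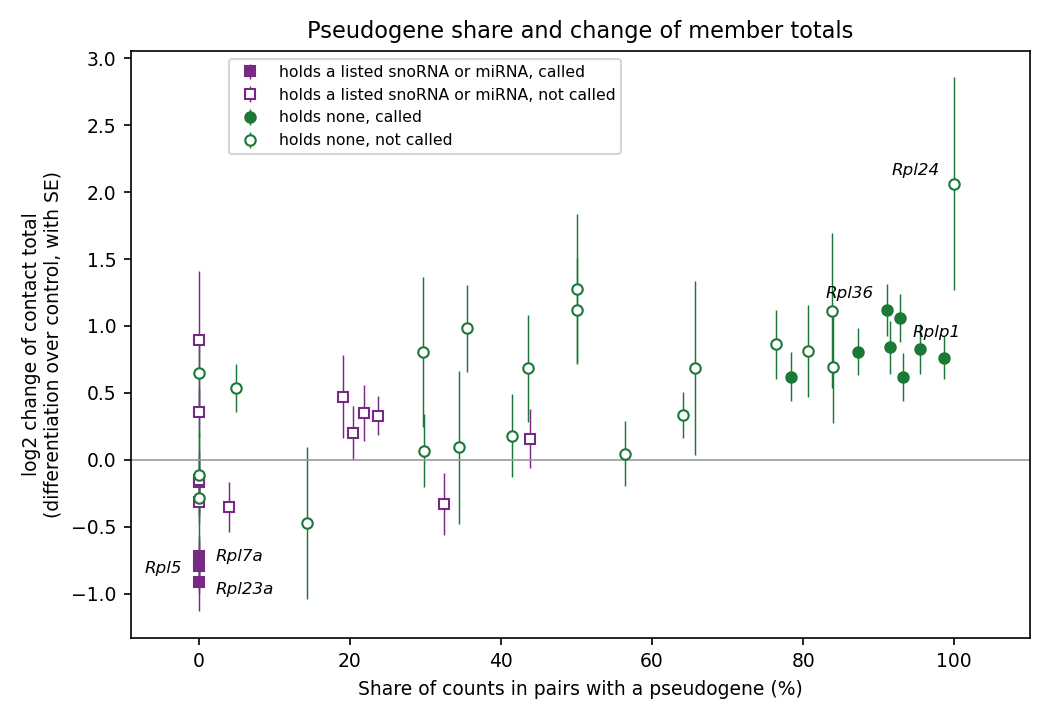
Log2 change of the contact total (differentiation over control, bars 1 SE of the fit) of 44 of the 45 tested members against the share of their counts in pseudogene pairs, with squares for members that hold a listed snoRNA or miRNA and filled symbols for called members. The 8 called higher members drawn lie between 78.3% and 98.7%, and the 3 called lower members lie at 0%.

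Many members are hosts of small RNAs. RefSeq placed a snoRNA or miRNA inside 20 members, and for 16 of them at least 1 such inner RNA, 25 in all, was itself listed in the contact table. These 25 had 211 pairs, of which 209 had a partner other than the host, and all 209 were also listed for the host. The rest joined Mir5121 and Snord32a to Rpl13a, their own host. In no library was the count of the inner RNA above that of its host with the same partner. In 27 of the 209 the counts were identical in all 4 libraries, and the median inner count was 56.2% of the host count. Counts of an inner RNA were thus also counts of its host in these pairs, and the host value cannot be read as that of the spliced messenger RNA alone.

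**Figure D4:**
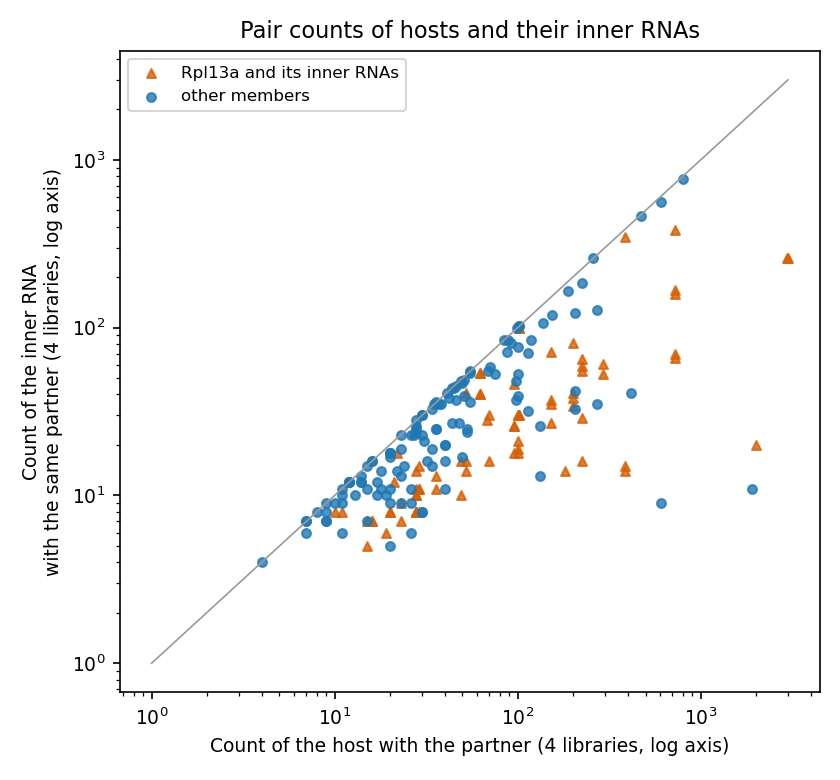
Summed count over the 4 libraries of each inner RNA with a partner against that of its host with the same partner (both axes log, 209 pairs, line at equality). All points lie on or under the line, and the median inner count is 56.2% of the host count.

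The share of a host's counts that its inner RNAs also carried was 94.7% for Rpl10 (Snora70), 90.3% for Rpl5 (mainly Snord21), 89.0% for Rpl3 (Snord83b), 76.8% for Rpl23a (Snord42a and Snord42b) and 3.28% for Rpl7a. For Rpl13a, which holds 4 listed snoRNAs and Mir5121, it was 24.3%. With Gm26917, Rpl5 had 64 and 95 counts in differentiation and 157 and 291 in control, while Snord21, on chromosome 5 at 107904555 to 107904648, had 60 and 90 in differentiation and 148 and 267 in control. With the same partner Rpl3 had 100 and 143 counts in differentiation and 218 and 339 in control, while Snord83b (chromosome 15 at 80078503 to 80078579) had 94 and 139 in differentiation and 213 and 322 in control. The 16 hosts had 1 higher total, 3 lower ones and a median change of 0.004. The members without a listed inner RNA had 8 higher and 0 lower among 29 tested and a median of 0.69. Over all 10993 tested RNAs 5.44% were higher and 6.75% lower, with a median of −0.001. The split ran together with the pseudogene share. Those 8 higher members had 78.3% to 98.7% of their counts in pseudogene pairs, and the 3 lower hosts had 0%. Whether holding an inner RNA goes with direction apart from that share was not tested. Once the counts shared with inner RNAs were taken off, 9 members were higher, and Rpl7a was the only member still lower (−0.72, adjusted p = 0.0145). Rpl5 then had a change of −0.86 (adjusted p = 0.191) and Rpl23a one of −0.52 (adjusted p = 0.421). The step took off 90.3% of the counts of Rpl5 and 76.8% of those of Rpl23a, which leaves fewer counts for a call. It took off only 3.28% for Rpl7a, where 1 of 4 annotated inner RNAs was listed. Rpl7a was thus left nearly unchanged by construction, and the step does not set it apart from Rpl5 and Rpl23a.

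The Rpl13a gene shows how annotated RNAs overlap there. Snord33 lies in it at 45126864 to 45126945, and Mir5121 at 45126918 to 45126991 shares 28 bases with it. The RefSeq hairpin of Mir5121 is printed with those shared bases in capitals, since a read there can be counted under Rpl13a, Snord33 and Mir5121.
Mir5121 (chr7:45126918-45126991, − strand): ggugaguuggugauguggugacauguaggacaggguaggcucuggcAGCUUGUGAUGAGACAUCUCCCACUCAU

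A second miRNA entry lay in a pseudogene partner. Rpl37a was paired with Gm4149 (chromosome 13 at 75644865 to 75645228) by 10 and 23 counts in differentiation and 12 and 9 in control, and with Mir682, which is annotated inside Gm4149, by 5 and 19 counts in differentiation and 10 and 5 in control. The hairpin is shown with the mature miRNA in capitals.
Mir682 (chr13:75645046-75645141, + strand): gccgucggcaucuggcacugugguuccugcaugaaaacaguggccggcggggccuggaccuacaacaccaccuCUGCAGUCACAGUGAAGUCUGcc
The counts of the pseudogene and of the miRNA entry cannot be told apart from those of 1 locus.

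Other names at the Rpl13a locus repeated its counts. Flt3l, a cytokine gene 2.44 kb away at 45131183 to 45136490 on chromosome 7, had the same counts as Rpl13a in all 4 libraries for 101 of its 110 other pairs. The pair of Rpl13a with Flt3l had 470 and 618 counts in differentiation and 470 and 460 in control (0.80, SE 0.20, adjusted p = 0.0258). The pair of Rpl13a with itself had 234 and 308 counts in differentiation and 235 and 230 in control (0.79, SE 0.22, adjusted p = 0.0452), and that of Flt3l with itself 235 and 310 in differentiation and 235 and 230 in control. The pair of Rpl13a with the pseudogene Gm11478 had 543 and 1156 counts in differentiation and 583 and 698 in control (0.92, SE 0.20, adjusted p = 0.0125), and that with Vmp1, the gene that spans Gm11478 on chromosome 11, had 544 and 1156 in differentiation and 586 and 698 in control. These pairs of pairs count once as evidence. Such repeats were common among members. Of 233 member pairs with 20 or more counts in all, 29.6% matched, in every library, another pair that shared an RNA with them. In the whole table this held for 7.48% of 28927 pairs of that size. All of the called Rpl13a pairs with these partners were lost without control 1 and without control 2.

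Pairs within a member were tested for all 4 that had one, and 2 were higher. Rpl22, a protein that also binds RNA outside the ribosome, had 422 and 887 counts with itself in differentiation and 513 and 535 in control, or 599.9 and 850 CPM in differentiation and 432 and 384 CPM in control (0.83, SE 0.21, adjusted p = 0.0265). This call was lost without differentiation 2, control 1 or control 2, and under column totals among other settings. Rpl22 with itself held most of the counts of the gene, whose pseudogene pairs held 4.89%. Rpl8, a protein near the peptidyl transferase centre, had the last 2 higher pairs, with Gm13890 and with Pax6os1, which carried identical counts of 10 and 9 in differentiation and 2 and 2 in control (2.75, SE 0.75, adjusted p = 0.0398). Both were lost without differentiation 1, control 1 or control 2 (adjusted p up to 0.205).

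All 6 lower pairs joined a member to Neat1, the noncoding RNA that builds paraspeckles. A Neat1 pair was listed for 9 members, all of them hosts of a listed inner RNA, and their summed Neat1 counts were 24 and 45 in the differentiation libraries and 391 and 463 in the controls. All 9 pairs were lower without overlap, as were 25.6% of all tested pairs. Among all RNAs, 268 of 801 tested Neat1 pairs were lower, with a median log2 change of −1.995, and the median of the 9 member pairs was −2.97. The difference between the 9 and the rest was not tested.

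Rpl13a with Neat1 had 5 and 15 counts in differentiation and 119 and 154 in control (−3.22, SE 0.38, adjusted p = 9.63e-05). Rpl7a with Neat1 had 3 and 3 counts in differentiation and 75 and 86 in control (−4.13, SE 0.50, adjusted p = 1.10e-04). Rpl4 with Neat1 had 1 and 4 counts in differentiation and 62 and 52 in control (−3.93, SE 0.58, adjusted p = 6.11e-04). For each of these pairs both differentiation libraries lay far below both controls.

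Rpl23a with Neat1 had 4 and 4 counts in differentiation and 37 and 69 in control (−3.10, SE 0.54, adjusted p = 0.00241), and Rpl3 with Neat1 had 3 and 4 in differentiation and 46 and 36 in control (−2.97, SE 0.56, adjusted p = 0.00483). Snord83b, inside Rpl3, had 3 and 4 counts with Neat1 in differentiation and 45 and 33 in control, and Snord33, inside Rpl13a, had 1 and 1 in differentiation and 18 and 33 in control. The share of a member's Neat1 counts that its inner RNAs also carried was 95.5% for Rpl3, 90.4% for Rpl23a, 85.7% for Rplp2 and 38.9% for Rpl13a. It was scored 0% for Rpl7a, Rpl4, Rpl5 and Rpl23, whose inner RNAs had no listed pair with Neat1. A pair without a count in any 1 library was not listed, so inner counts may be missing there. Of the annotated inner RNAs, only 1 of 4 was listed for Rpl7a and 2 of 5 for Rpl4. Rpl5, Rpl23 and Rplp2 had Neat1 pairs that did not pass (−0.97, −2.15 and −1.58). None of the 7 tested Malat1 pairs of members passed by edgeR or DESeq2 (1 was lower at an unadjusted p under 0.05), with a median of −0.91, against −0.87 over all 1487 tested Malat1 pairs.

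**Figure D5:**
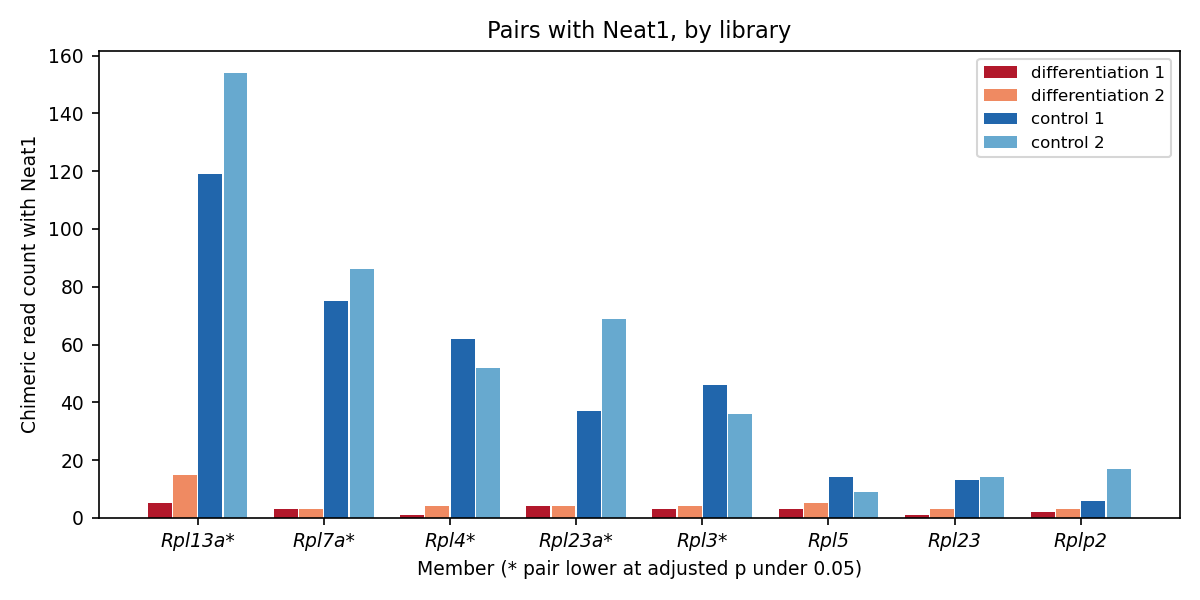
Chimeric read counts of 8 of the 9 member pairs with Neat1 in each library, as deposited. The differentiation libraries held 1 to 15 counts a pair and the controls 6 to 154, and the 5 starred pairs were lower at an adjusted p under 0.05.

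The 3 lower totals were also lost under column totals, with adjusted p values of 0.0548 for Rpl23a, 0.0674 for Rpl5 and 0.0642 for Rpl7a. Changes without some partners are a description, since a total is the sum of its pairs and moves by construction when pairs are left out. Neat1 and Malat1 took 43.6% of the counts of Rpl23a, and without these pairs its change was −0.24 (adjusted p = 0.606). They took 13.4% of the counts of Rpl7a, whose change without them was −0.44 (adjusted p = 0.124) and without the Gm42418 and Gm26917 pairs −0.70 (adjusted p = 0.0542). For Rpl5, 63.0% of the counts were with Gm42418 or Gm26917, and without those pairs its change was −0.34 (adjusted p = 0.495). The pairs of members with Gm42418 or Gm26917 were tested in 55 cases and 0 were called by edgeR or DESeq2, with 2 higher and 3 lower at an unadjusted p under 0.05. The median of the 27 Gm42418 pairs was 0.43 (0.04 over all RNAs) and that of the 28 Gm26917 pairs was −0.12 (−0.23 over all RNAs). With Gm26917, Rpl7a had 50 and 83 counts in differentiation and 119 and 166 in control, and with Gm42418 it had 29 and 48 in differentiation and 79 and 79 in control. With Slc9a9, an ion exchanger RNA that was paired with 30 members, 14 tested pairs had a median of 0.67 against 0.03 over all RNAs, and 0 passed by edgeR or DESeq2 (3 were higher at an unadjusted p under 0.05).

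Pairs between ribosomal protein RNAs were few. Members were paired with each other in 4 pairs and with small subunit protein RNAs in 7, and none of the 8 tested passed by edgeR or DESeq2 (1 was lower at an unadjusted p under 0.05). Rpl13a with Rpl10 had 21 and 23 counts in differentiation and 31 and 27 in control (0.18, SE 0.42, adjusted p = 0.875). Snord33 with Snora70, the snoRNAs inside these genes, had 21 and 20 counts in differentiation and 31 and 27 in control, so nearly all of these counts were also counts of a snoRNA pair. Rpl13a with Rpl4 had 14 and 4 counts in differentiation and 10 and 8 in control (0.64, adjusted p = 0.686), and Rpl17 with Rpsa had 1 and 13 in differentiation and 9 and 4 in control (0.56, adjusted p = 0.759).

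The title of the series names Gm16751, Zhx3 and the protein RPS3. No listed member pair held Gm16751 or Zhx3. Rps3 RNA was paired with Rpl7a (7 and 2 counts in differentiation, 4 and 10 in control), with Rpl13a (5 and 9 in differentiation, 5 and 10 in control) and with Rpl3 (1 and 7 in differentiation, 5 and 5 in control). The first had a change of −0.003 (adjusted p = 0.998), the Rpl13a pair one of 0.46 (adjusted p = 0.766), and the Rpl3 pair had too few counts for a test.

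Other RNAs of the translation apparatus were set beside the members, and their counts stand against 5.44% higher and 6.75% lower over all tested RNAs. Of 29 tested small subunit protein RNAs 6 were higher and 0 lower by edgeR and by DESeq2 (11 higher and 1 lower at an unadjusted p under 0.05), with a median of 0.63. Rps19, needed for maturation of the small subunit, had 164 and 219.7 CPM in differentiation and 107 and 84.1 CPM in control (1.01, adjusted p = 0.00808), and Rps14 had 320.4 and 358 CPM in differentiation and 212 and 175 CPM in control (0.81, adjusted p = 0.00874). Among mitochondrial ribosomal proteins 1 of 15 large subunit RNAs (Mrpl54) and 0 of 11 small subunit RNAs were higher, with medians of 0.37 and 0.52. In each of these lists 0 were lower by edgeR or DESeq2, and at an unadjusted p under 0.05 the calls were 1 higher and 0 lower.

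Of 59 tested ribosome biogenesis RNAs 4 were higher (Fbl, Eif6, Ltv1 and Nolc1), a share near that of all tested RNAs, and 0 were lower by edgeR (3 and 0 by DESeq2, 9 and 3 at an unadjusted p under 0.05), with a median of 0.08. Fbl, the methyltransferase that works with box C/D snoRNAs, had 329 and 379.5 CPM in differentiation and 151 and 168 CPM in control (1.15, adjusted p = 0.00106). Of 48 translation factors 6 were higher (Eef1g, Eif4e, Eif5a, Gspt1, Pabpc1 and Larp1) and Eif4g3 was lower, with a median of 0.03. Larp1, the protein that binds the TOP motif, had 594 and 634 CPM in differentiation and 373 and 397 CPM in control (0.68, adjusted p = 0.0124).

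Some marker lists differed between the groups and others did not. Of 20 markers of undifferentiated spermatogonia 13 were listed, 3 of 10 tested were lower (Gfra1, Shisa6 and Foxo1), and their summed level was 447 and 444 CPM in differentiation and 1080.2 and 1249 CPM in control. Id4, Lin28a, Nanos2, Eomes, Bcl6b, Lhx1 and Pou5f1 were not analysed here. Of 12 tested markers of differentiating and meiotic germ cells 7 were higher, with sums of 796 and 937 CPM in differentiation and 289 and 266 CPM in control. Of 10 tested general germ cell markers 3 were higher and 0 lower by edgeR and by DESeq2 (5 higher at an unadjusted p under 0.05), and their summed level overlapped between groups, with 4277.5 and 3906.8 CPM in differentiation and 3848.8 and 4174.2 CPM in control. For Sertoli cells 5 of 12 were lower (897 and 873 CPM in differentiation, 1336 and 1513 CPM in control), and for fibroblasts 4 of 12 were lower and 1 higher (2151 and 2248 CPM in differentiation, 2550 and 2314 CPM in control). Leydig and peritubular markers had 0 of 6 called by edgeR or DESeq2 and 1 in each direction at an unadjusted p under 0.05 (256 and 249.9 CPM in differentiation, 247 and 255 CPM in control). Of 7 immune markers 2 could be tested and 0 were called by edgeR, DESeq2 or at an unadjusted p under 0.05, with sums of 49.7 and 7.0 CPM in differentiation and 9.3 and 13.6 CPM in control. The part of the lists that differed in the member values was not tested.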

How the data were processed

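The authors deposited, for each pair of RNAs, the whole-number count of chimeric reads in each library, not normalized. STAR and GRCm38 were named in the submitters' processing notes, without a role or version. The sources used here do not state how chimeric reads, duplicates or overlapping genes were handled. RNAs were matched by name to RefSeq genes of GRCm38.p6, which gave coordinates (1-based), pseudogenes (with Gm42418 set apart, and names with ps after a hyphen added) and inner RNAs (a snoRNA or miRNA within the span of a member). Depth was 793129 to 1400011 counts a library.

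Pairs and contact totals were each fitted over the whole table with edgeR 4.0.16 in R 4.3.3 (quasi-likelihood F test, TMM, filterByExpr with minimum count 5 and minimum total 10, two-sided, Benjamini-Hochberg). SE is that of the fitted log2 change. A pair of different RNAs is part of 2 totals, which makes totals dependent. Biological variation (coefficient) was 24.9% for pairs and 18.7% for totals.

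The members, lists and rules were chosen with earlier results of these data known. Named were the 6 members with most counts, up to 6 called in each direction by adjusted p, paralogs, the stalk and Rpl5 and Rpl11, up to 8 called pairs in each direction, the 5 largest pairs, the 5 largest pairs of 2 ribosomal protein RNAs, and pairs with the study's genes. Rpl7, Rpl41, Rpl28, Rpl24, the Rpl8 pairs and the other RNAs named beside them were picked with their values known. The own values of 1 member and of 1 pair of ribosomal protein RNAs are not reported here, and both stay in the counts and medians. The alternatives used RLE scaling, column totals, no filter or the default filter (minimum count 10, total 15), DESeq2 1.42.0, robust dispersion, a replicate block, each library left out (the lone library assumed to vary like the other group), subsets of pairs and an adjusted p under 0.1. Leaving out pseudogene pairs and taking off counts shared with inner RNAs were added after seeing the data.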

Additional observations from a re-analysis of the deposited data

How the results depend on the processing

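The 9 higher and 3 lower totals, 20 higher and 6 lower pairs and the median change of 0.54 moved as follows. Higher totals numbered 14 over between-RNA pairs only, 0 without pseudogene pairs, and 0 to 18 with 1 library left out. Lower totals numbered 0 under column totals, 1 without Gm42418 and Gm26917 pairs, without Neat1 and Malat1 pairs or without counts shared with inner RNAs, and 0 to 3 with 1 library left out. Higher pairs numbered 10 under column totals, 11 over between-RNA pairs only, 13 without Gm42418 and Gm26917, 11 without Neat1 and Malat1, 8 without pseudogene pairs, 32 at an adjusted p under 0.1, and 3 to 32 with 1 library left out. Lower pairs numbered 0 without Neat1 and Malat1, and 5 to 6 with 1 library left out. The median was 0.70 under column totals (which moved the median of all RNAs by 0.16, and left the members 0.54 above it), 0.655 over between-RNA pairs only, 0.22 without pseudogene pairs, and 0.38 to 0.72 with 1 library left out. The causes were not tested, except that fewer libraries or pairs enter by construction.

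With the replicate number as a block, totals had 13 higher and 3 lower and pairs 27 higher and 7 lower. Over 8294 RNAs, the log CPM difference between the differentiation libraries correlated at 0.134 with that between the controls, both taken in number order. With only 2 pairs of libraries of the same number, the numbers are not taken as pairing.

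Signs turned without pseudogene pairs for Rpl11 (−0.37), Rpl7 (−0.28) and Rpl7a with Rps3 (0.032), and without Gm42418 and Gm26917 for Rpl3 (0.053). Rpl7a with Rps3 also turned with RLE (0.015), DESeq2 (0.13) and between-RNA pairs only (0.057). With 1 library left out, changes ran between −0.30 and 0.36 for Rpl7l1, −0.093 and 0.46 for Rpl11, −0.039 and 0.40 for Rpl13a with Rpl10, −0.86 and 1.49 for Rpl13a with Rpl4, −1.76 and 1.38 for Rpl17 with Rpsa, and −1.44 and 0.88 for Rpl7a with Rps3. None of these values passed. Of all named results under all alternatives, 515 kept their side and direction, 71 lost the call, 9 gained it and 16 turned. Counts under about 10 in a library limit most pairs between ribosomal protein RNAs.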
